A study of Mus musculus with 7 samples.

Results

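The genes described here are Muc5ac, Tff1, Gkn1 and Gkn2, secreted products of the surface mucous pit cells that line the stomach. They were chosen by name: each was represented on the array by 1 probe set annotated to that gene alone, and all 4 were found among the 22180 genes compared. Their log2 signal was followed in the gastric corpus, where the acid-making glands lie, from a saline control through 24, 36, 48 and 72 h after the last dose of diphtheria toxin. All mice were of the Atp4b-DTR genotype and 8 to 12 weeks old. Toxin at 225 ng per mouse, or saline in the control, was injected daily for 3 days, and RNA of corpus tissue was measured. In these mice the Atp4b promoter, active in acid-secreting parietal cells, drives the toxin receptor, and the control carries it too. There were 7 arrays, 1 each for the control, 24 h and 36 h and 2 each for 48 h and 72 h. The labels do not say how many mice stand behind an array, so that a p-value covers only how these arrays scatter, which may be technical.

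Pit cells arise from dividing cells of the gland isthmus, move up to the lumen and are shed there, and they cover the mucosa with a gel that holds bicarbonate against acid. Muc5ac is the gel-forming mucin of that layer, and Tff1 is a small trefoil peptide that is packed with it and that protects and repairs the epithelium. Gkn1 and Gkn2 are gastrokines, secreted proteins with a BRICHOS domain, and in human stomach GKN2 is found bound to TFF1. Each family has a relative in another cell of the same gland: Muc6, Tff2 and mouse Gkn3 are products of the mucous neck cells, which lie below the pit.

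Several traits of the arrays bear on these comparisons. Array medians over all 41345 probe sets, which are the medians subtracted below, were 0.04 to 0.14 higher on the toxin arrays than on the control. Over the 22180 genes compared, the median was 5.16 on the control and 5.14 to 5.19 on the toxin arrays. The log2 signal of Xist was 8.13 on the control, 9.17 on the 24 h array and between 2.70 and 3.27 elsewhere, so that the 24 h array is the only toxin array with the sex pattern of the control. The median of 15 parietal cell genes lay below the control throughout, by a log2 difference of -1.41 on the 24 h array and -0.66 on the 36 h array. It was -1.25 and -0.83 for the 48 h pair and -0.67 and -0.25 for the 72 h pair. Markers of squamous forestomach differed between arrays of the same time: Krt4, a keratin of stratified epithelium, had a log2 signal of 7.79 without toxin, 4.21 and 7.74 in the 48 h pair and 8.51 and 4.12 in the 72 h pair. In bulk tissue, fewer cells of a type and less RNA per cell cannot be told apart.

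The gastrokine genes lie next to each other on mouse chromosome 6, in the order Gkn1, Gkn2, Gkn3 with no other protein-coding gene between them. Their promoter windows are shown because the pit genes Gkn1 and Gkn2 and the neck gene Gkn3 had different values after toxin. Each window holds 250 bases before and 50 after the gene's start, from RefSeq on GRCm38.p6, printed 5′ to 3′ on the gene's own strand. No build is named for the array itself. Capitals mark matches to the TATA box TATAAA, the GATA motif AGATAA or the forkhead motif TGTTTA, searched on both strands, and no matches overlapped.
Gkn1, chr6:87350866-87351165, minus strand: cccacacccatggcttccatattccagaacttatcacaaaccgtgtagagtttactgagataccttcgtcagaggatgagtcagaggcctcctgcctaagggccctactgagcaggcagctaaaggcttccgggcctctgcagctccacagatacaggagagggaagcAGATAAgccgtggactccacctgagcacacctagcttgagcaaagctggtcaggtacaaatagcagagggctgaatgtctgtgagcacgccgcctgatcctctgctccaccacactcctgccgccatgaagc
Gkn2, chr6:87373115-87373414, plus strand: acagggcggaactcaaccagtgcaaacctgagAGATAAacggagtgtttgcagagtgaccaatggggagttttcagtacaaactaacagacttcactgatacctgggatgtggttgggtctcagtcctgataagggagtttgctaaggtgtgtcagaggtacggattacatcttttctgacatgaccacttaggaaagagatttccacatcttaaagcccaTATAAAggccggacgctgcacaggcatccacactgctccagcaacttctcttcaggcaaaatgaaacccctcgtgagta
Gkn3, chr6:87388886-87389185, minus strand: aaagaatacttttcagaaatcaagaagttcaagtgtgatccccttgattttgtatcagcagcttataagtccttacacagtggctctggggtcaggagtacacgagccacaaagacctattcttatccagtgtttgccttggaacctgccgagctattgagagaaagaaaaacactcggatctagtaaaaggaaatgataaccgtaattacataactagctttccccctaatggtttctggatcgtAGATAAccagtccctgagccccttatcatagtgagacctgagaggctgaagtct
Gkn1 held 1 GATA match, which began at position -82 relative to the start. Gkn2 held a TATA box beginning at -29 and a GATA match at -218. Gkn3 held 1 GATA match, at -4. These letters are common: of 32841 mouse promoter windows of this length, 13.6% held the TATA box, 11.2% the GATA motif and 13.4% the forkhead motif.

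Muc5ac was the member with the largest difference from the control. Its log2 signal was 11.81 on the control array, then 12.27 (24 h), 12.39 (36 h), 12.35 and 12.23 (48 h pair), and 12.21 and 12.11 (72 h pair). All 6 toxin arrays therefore lay above the control, the 36 h array highest, and both 72 h arrays lay below both 48 h arrays. As ratios to the control these are 1.38 (24 h), 1.49 (36 h), 1.45 and 1.34 (48 h pair), and 1.32 and 1.23 (72 h pair). Muc5ac and Gkn2 were the members that lay above the control on all 6 toxin arrays, where 20.2% of all genes did, and 0 members lay below it on all 6, where 22.6% of all genes did. At 24 h 3 of 4 members were above the control and at 36 h all 4 were, Gkn1 by less than 0.01, against 44.8% and 44.4% of all genes. With array medians subtracted Muc5ac stayed above the control on all 6, at log2 differences of 0.26 to 0.48, whereas Gkn2 did so on 2 of 6. A log2 difference as large as the smallest of Muc5ac, 0.30, was reached on all 6 arrays by 791 genes (3.57%).

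At 48 h the fitted log2 difference of Muc5ac from the control was 0.48 ± 0.09 (SE, 2 arrays against 1), with a 95% interval from 0.20 to 0.76. At 72 h it was 0.35 ± 0.09, with an interval from 0.07 to 0.63. Both differences exceeded the gaps between paired arrays, which were 0.12 at 48 h and 0.10 at 72 h on the log2 scale. Neither passed the test over all genes: limma's adjusted p was 0.155 at 48 h and 0.221 at 72 h, and the unadjusted p was 0.0115 and 0.0280. Over the alternatives tried, the adjusted p ran from 0.0989 to 0.290 at 48 h and from 0.163 to 0.411 at 72 h. In limma 0% of the 22180 genes had an adjusted p under 0.05 at either time. At an unadjusted p under 0.05 Muc5ac was 1 of 4 members at both times, where 19.7% of all genes at 48 h and 17.9% at 72 h had such a p. Both 48 h arrays were above the control for 2 members (31.9% of all genes) and below it for 0 (34.4%). Both 72 h arrays were above it for 3 members (34.2%) and below it for 1, Gkn1 (33.9%), whose first 72 h array lay within 0.01 of the control. The control is a single array, so a trait of that array and a response to toxin cannot be told apart in any of these differences.

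Among the toxin arrays Muc5ac was lowest on the 72 h arrays as deposited, without passing the test. Its 24 h value of 12.27 lay between those of the 48 h pair. The 72 h arrays differed from the 48 h arrays by -0.13 ± 0.07 on the log2 scale (adjusted p 0.757 in limma). Both 72 h arrays lay below both 48 h arrays in 13.0% of all genes, and Muc5ac was the member that did so; 0 members had both 72 h arrays above both 48 h arrays, where 16.7% of all genes did. At an unadjusted p under 0.05 there were 0 members in this comparison, where 7.07% of all genes had such a p, 4.27% higher and 2.80% lower. The slope over the 6 toxin arrays was -0.09 ± 0.05 log2 units per 24 h (adjusted p 0.655 in limma). For the slope, too, 0 members had an unadjusted p under 0.05, against 8.70% of all genes, 4.22% with a higher and 4.47% with a lower signal at later times. Both counts depend on the scaling. With quantile normalisation again, limma's unadjusted p of Muc5ac was 0.0487 for 72 h against 48 h and 0.0187 for the slope. In that setting 1662 and 2196 genes had such a p under 0.05. With array medians subtracted the first 72 h array, at 7.58, lay above the second 48 h array, at 7.52. The unadjusted p of Muc5ac in limma was then 0.553 for 72 h against 48 h and 0.242 for the slope. The slope of Muc5ac was -0.15 without the 24 h array, which leaves arrays of 1 sex pattern, with an adjusted p of 0.697. The adjusted p of its slope ran from 0.424 to 0.938 over the alternatives. Without the second 72 h array the slope was -0.05. Exact permutation tests of single genes cannot decide here, since the smallest two-sided p is 0.333 both for 2 arrays against 1 and for 2 against 2.

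**Figure D1:**
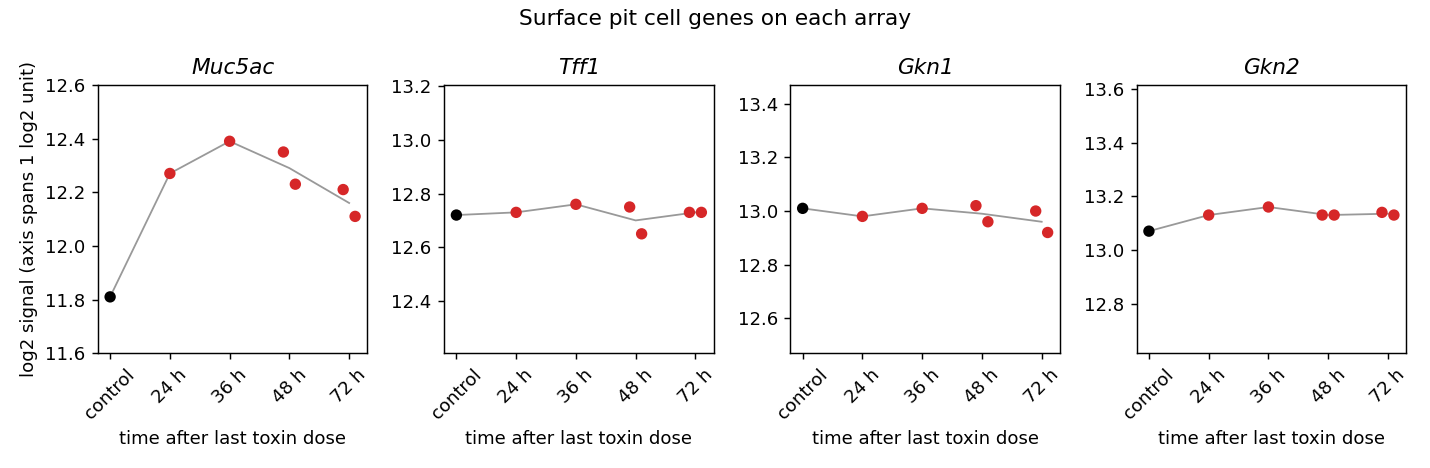
Log2 signal of Muc5ac, Tff1, Gkn1 and Gkn2 on each of the 7 arrays (points) by time after the last toxin dose, with the control in black and a grey line through the group means. Each vertical axis spans 1 log2 unit: Muc5ac lies between 12.11 and 12.39 on the toxin arrays against 11.81 on the control, and the other 3 genes have a range of at most 0.111 over all 7 arrays.

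Tff1 was nearly the same on every array. Its log2 signal was 12.72 on the control, 12.73 (24 h), 12.76 (36 h), 12.75 and 12.65 (48 h pair), and 12.73 on both 72 h arrays. The toxin arrays lay on both sides of the control, and the second 48 h array was lowest. The log2 difference from the control was -0.02 ± 0.07 at 48 h (adjusted p 0.950 in limma) and 0.01 ± 0.07 at 72 h (adjusted p 1.00). The 95% intervals ran from -0.23 to 0.19 and from -0.20 to 0.22.

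Gkn1, the gastrokine that human gastric tumours often lose, was equally flat. Its log2 signal was 13.01 on the control, then 12.98 (24 h), 13.01 (36 h), 13.02 and 12.96 (48 h pair), and 13.00 and 12.92 (72 h pair). The second 72 h array was lowest, and the control lay within the range of the toxin arrays. The fitted log2 difference was -0.02 ± 0.07 at 48 h and -0.05 ± 0.07 at 72 h, with intervals from -0.23 to 0.20 and from -0.26 to 0.17 (adjusted p 0.978 and 0.837 in limma).

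Gkn2, the gastrokine that pairs with Tff1 in human tissue, lay slightly above the control throughout. Its log2 signal was 13.07 on the control, 13.13 (24 h), 13.16 (36 h), 13.13 on both 48 h arrays, and 13.14 and 13.13 (72 h pair). The 6 toxin arrays lay above the control as deposited, although not when the arrays were scaled in other ways. The fitted log2 difference was 0.06 ± 0.05 at both 48 h and 72 h, with intervals from -0.09 to 0.20 and from -0.08 to 0.21 (adjusted p 0.627 and 0.622 in limma). Between 48 h and 72 h, Tff1, Gkn1 and Gkn2 differed by 0.03, -0.03 and 0.00 log2 units, with adjusted p from 0.861 to 0.997.

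Tff1, Gkn1 and Gkn2 varied less between arrays than most genes of the table. Their range over the 7 arrays was 0.111 for Tff1, 0.104 for Gkn1 and 0.089 for Gkn2 on the log2 scale, against a median of 0.40 over all genes. Only 4.42%, 3.9% and 2.92% of genes had a smaller range, in the same order. Among 35 genes with a mean log2 value of 12 or more the median range was 0.27, and 3, 2 and 0 of those genes had a smaller range. The range of Muc5ac was 0.578, and 73.9% of all genes had a smaller one.

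All 4 probe sets lay near the top of the signal range. The highest value on the same array was 0.64 to 0.80 log2 units above Tff1, 0.37 to 0.53 above Gkn1 and 0.26 to 0.37 above Gkn2. For Muc5ac the distance was 1.05 to 1.61. Tff1 and Gkn2 each had 6 distinct values on the 7 arrays. Sorted by signal, Gkn2 held a place between 6 and 9 among the 41345 probe sets of every array, and Muc5ac moved from place 103 on the control to between 56 and 75 on the toxin arrays. Saturation of these probes, and its part in their steady values, was not tested.

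The members therefore did not keep 1 ratio to each other. The log2 ratio of Muc5ac to Tff1 was above its control value on all 6 toxin arrays, by 0.29 to 0.54, and that of Muc5ac to Gkn1 by 0.39 to 0.58. The ratio of Muc5ac to Gkn2 was higher by 0.24 to 0.49. All these ratios are set against the same single control array. A shift common to all genes of an array cancels in such a ratio. One that depends on signal, such as compression near the top of the range, does not, and its part was not tested.

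The genes most like each member were found by the root mean square difference of log2 differences from the control over the 6 toxin arrays, among 10661 genes at or above the median gene. For Muc5ac they were Atp8b1 at 0.047, Lcor at 0.052 and Odf1 at 0.053. Atp8b1 encodes a phospholipid flippase subunit, and it lay above the control by 0.32 to 0.48 on the log2 scale. The nearest to Tff1 were Wrap73 at 0.010, Fam83f at 0.012 and Zdhhc5 at 0.015, and to Gkn1 Rnf138 at 0.020, Hexdc at 0.021 and Sec14l2 at 0.022. For Gkn2 they were Kif21b at 0.008, Xpo6 at 0.015 and Zfp142 at 0.018. A flat profile has many neighbours: 1553, 1449 and 1266 genes lay within 0.1 of Tff1, Gkn1 and Gkn2, and 78 genes within 0.1 of Muc5ac.

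In the trefoil and gastrokine families the pit cell members lay near the control, while the neck cell members lay above it on both 72 h arrays. The difference between relatives was not tested. Nor was the part of compression near the top of the signal range, where Tff1, Gkn1 and Gkn2 lay. Tff2, the trefoil peptide of mucous neck cells, had a log2 signal of 11.47 on the control, then 11.15 (24 h), 12.11 (36 h), 11.61 and 11.67 (48 h pair), and 12.38 and 12.13 (72 h pair). It was below the control at 24 h and above it on the other 5 toxin arrays, and the 72 h arrays lay above the 48 h arrays. The log2 difference at 72 h was 0.79 ± 0.13 (adjusted p 0.164 in limma, unadjusted p 0.00833). The arrays from 36 h on, where Tff2 was above the control, are also those with the other sex pattern, and Gast, the gastrin gene of the antrum, was 0.17 above the control at 24 h and 0.84 to 2.48 above it on those 5 arrays. The part of either in the value of Tff2 was not tested. Tff3, the trefoil peptide of intestinal goblet cells, was at log2 differences of -0.04 to -0.27 from the control.

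Gkn3 showed the same contrast in the gastrokines at larger size. Its log2 signal was 7.07 on the control, then 7.14 (24 h), 8.75 (36 h), 8.84 and 7.93 (48 h pair), and 8.92 and 8.51 (72 h pair). From 36 h on all 5 arrays lay above the control by at least 0.86 log2 units, while the 24 h array lay 0.07 above it, or 0.01 below it with array medians subtracted. The log2 difference was 1.31 ± 0.49 at 48 h (adjusted p 0.301 in limma) and 1.64 ± 0.49 at 72 h (adjusted p 0.255). The log2 ratio of Gkn3 to Gkn1 exceeded its control value by 0.91 to 1.85 on those 5 arrays, and that of Tff2 to Tff1 by 0.11 to 0.90. At 24 h these ratios differed from the control by 0.09 and -0.32. As with Tff2, the 24 h array differs from the later ones in sex pattern too. The log2 differences of Gast were 0.17 (24 h), 1.49 (36 h), 1.49 and 0.84 (48 h pair), and 2.48 and 1.77 (72 h pair), and those of the goblet cell gene Fcgbp were -0.52, 4.93, 3.24, 0.61, 4.22 and 4.15 in the same order. Both genes, like Gkn3, were lower on the second 48 h array than on the first, and the part of antral or goblet cell RNA and of sex in the value of Gkn3 was not tested.

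The mucins showed no such pattern. Muc6, the mucin of neck and gland cells, had a log2 signal of 10.38 on the control, then 10.08 (24 h), 10.19 (36 h), 10.95 and 10.50 (48 h pair), and 10.50 and 9.97 (72 h pair). Its arrays scattered around the control, with gaps of 0.45 and 0.53 log2 units within the pairs, and its differences of 0.34 ± 0.34 at 48 h and -0.15 ± 0.34 at 72 h lay within that spread (adjusted p 0.730 and 0.907 in limma). The log2 ratio of Muc6 to Muc5ac was below its control value on 5 of 6 toxin arrays, by -0.28 to -0.77, and was 0.02 above it on the first 48 h array. Muc2, the intestinal goblet cell mucin, lay 0.22 to 0.41 above the control on the 6 arrays, at log2 values of 4.49 on the control and 4.71 to 4.90 after toxin. Muc5b and Muc19 were at log2 values of 4.27 to 5.13 throughout. Of 5 membrane mucins, 0 had an adjusted p under 0.05, and at an unadjusted p under 0.05 0 were higher and 1 lower at both times, where 11.6% and 10.0% of all genes were lower. On all 6 toxin arrays 2 of the 5 were above the control and 1 was below it, where 20.2% and 22.6% of all genes were. Muc1 lay above the control by log2 differences of 0.05 to 0.53, and with array medians subtracted it did so on 4 of 6. Muc4 lay above the control by 0.60 to 1.96. Its log2 value was 4.66 on the control, where the median gene was at 5.16, and 5.25 to 6.62 after toxin. Muc13, a cell-surface mucin of gut epithelium, was the one below, at -0.79 ± 0.12 from the control at 48 h (adjusted p 0.132 in limma). Muc6, Muc2, Muc5ac and Muc5b lie side by side on chromosome 7.

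**Figure D2:**
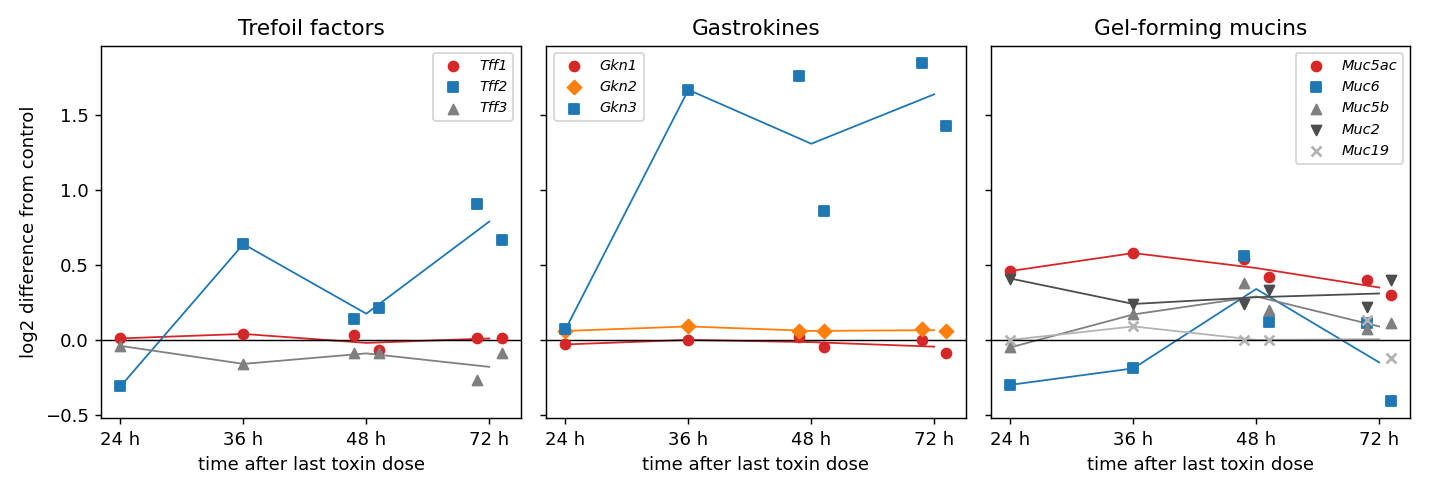
Log2 difference from the control array for the trefoil factors, the gastrokines and the gel-forming mucins on the 6 toxin arrays (points), with lines through the group means. Tff1, Gkn1 and Gkn2 stay within 0.09 of the control on every array, whereas Gkn3 lies 0.86 to 1.85 above it from 36 h on and Muc5ac 0.30 to 0.58 above it throughout.

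**Figure D3:**
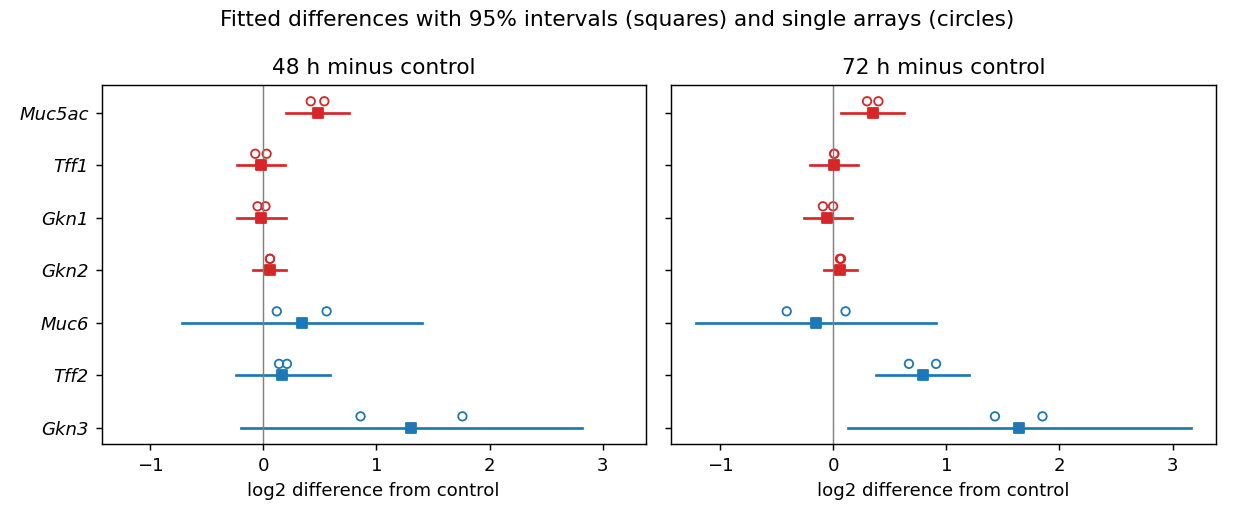
Fitted log2 differences from the control (squares) with 95% intervals from limma (lines) and the single arrays (open circles), at 48 h and 72 h, for the pit cell genes (red) and their neck cell relatives (blue). The intervals of Tff1, Gkn1 and Gkn2 lie between -0.26 and 0.22, that of Muc5ac lies above 0 at both times, and those of Tff2 and Gkn3 lie above 0 at 72 h.

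Other genes of surface pit cells stayed mostly near the control. Of 15 measured, with Lypd8l not analysed here, 0 had an adjusted p under 0.05 in limma at 48 h or 72 h. At an unadjusted p under 0.05 there were 2 higher and 0 lower at 48 h and 1 higher and 0 lower at 72 h, where 8.16% and 7.93% of all genes were higher at such a p. The list's median log2 difference was -0.10 (24 h), 0.06 (36 h), 0.09 and -0.12 (48 h pair), and 0.08 and 0.00 (72 h pair), against 0.00 over all genes on each array. Psca, a surface protein of pit cells, had a log2 signal of 13.06 without toxin and 12.91 to 13.04 after toxin. Foxq1, a transcription factor that mouse surface mucous cells need for Muc5ac, was at 9.06 on the control and 8.93 to 9.43 after toxin, on both sides of the control.

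Krt20, a keratin of mature surface cells, had a log2 signal of 9.32 on the control, then 8.51 (24 h), 10.01 (36 h), 9.41 and 8.84 (48 h pair), and 9.91 and 9.61 (72 h pair). Mucl3, a mucin-like gene, was at 12.89 on the control, 12.33 at 24 h and 12.61 to 12.90 on the other toxin arrays. At 24 h 4 of the 15 genes were above the control and at 36 h 11 were, where 44.8% and 44.4% of all genes were. The differences at 24 h and 36 h, 1 array against 1, were not tested. No member and 0 of these 15 genes differed by 2-fold or more, where 1.20% of all genes were this much higher and 1.67% this much lower at 24 h and 0.933% and 1.61% were at 36 h.

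Capn8 and Phgr1 had the lowest p of the 15 at 48 h and are named after their values were seen. Capn8, a calpain protease of surface mucous cells, exceeded the control on the log2 scale by 0.30 (24 h), 0.95 (36 h), 0.66 and 0.59 (48 h pair), and 0.10 and 0.36 (72 h pair). Like Muc5ac it was above the control on all 6 arrays, with its highest value at 36 h (adjusted p 0.175 at 48 h in limma). In all, 3 of the 15 genes, Capn9 among them, were above the control on all 6 and 2 were below, where 20.2% and 22.6% of all genes were. Capn9 was also highest at 36 h, by 0.40. Phgr1, a gene of gut surface epithelium, was -0.11 from the control at 24 h and 0.50 to 0.82 above it afterwards (adjusted p 0.213 at 48 h and 0.198 at 72 h).

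**Figure D4:**
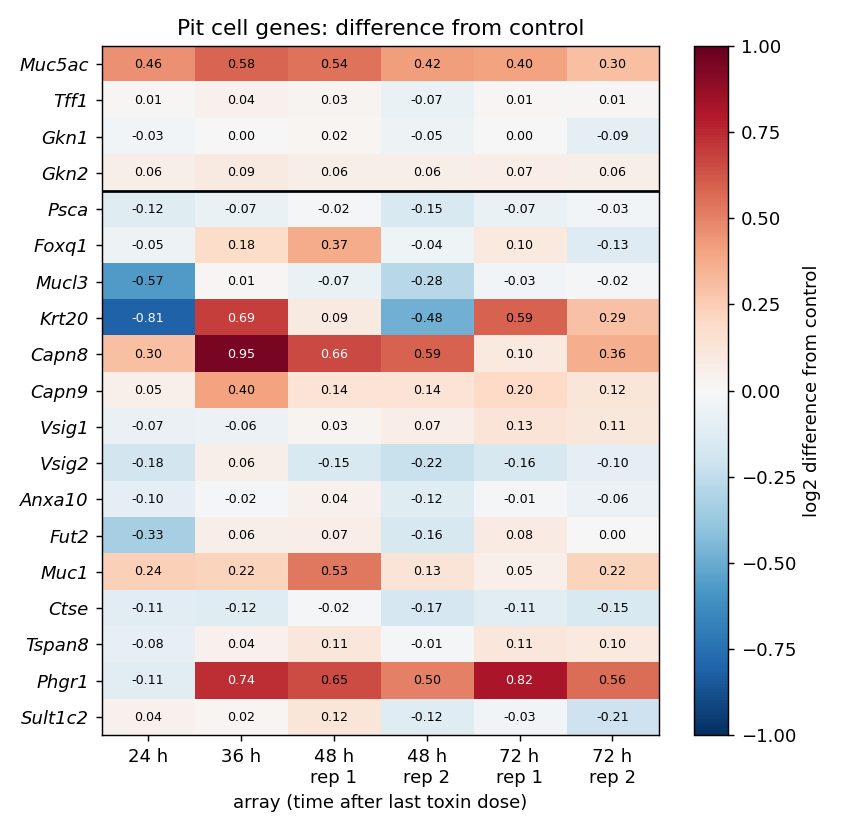
Log2 difference from the control array for the 4 members (above the black line) and 15 further pit cell genes (below it) on each of the 6 toxin arrays, with red above and blue below the control and the value printed in each cell. Muc5ac, Capn8 and, from 36 h on, Phgr1 stand above the control, Krt20 and Mucl3 stand at -0.81 and -0.57 at 24 h, and most other cells lie within 0.2 of it.

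Of 28 genes that fold and glycosylate mucins, 13 were above and 15 below the control at 48 h, and 8 were above and 20 below at 72 h. On all 6 toxin arrays 11 of the 28 were below the control and 0 above it, where 22.6% and 20.2% of all genes were. None, 0 of 28, had an adjusted p under 0.05 in limma. At an unadjusted p under 0.05, 0 were higher and 5 lower at 48 h and 0 higher and 6 lower at 72 h, where 11.6% and 10.0% of all genes were lower at such a p. The median log2 difference was -0.12 (24 h), 0.01 (36 h), 0.08 and -0.14 (48 h pair), and -0.10 and -0.18 (72 h pair), against 0.00 over all genes. Agr2, a disulfide isomerase that mucins need for folding, had a log2 signal of 10.88 without toxin and 10.71 to 11.22 after toxin, on both sides of the control. Ern2, the stress sensor of mucous epithelia, was at 9.01 and at 8.83 to 9.41. Named after their values were seen, Xbp1, a transcription factor of secretory cells, was lower by a log2 difference of -0.76 ± 0.05 at 48 h and -0.58 ± 0.05 at 72 h (adjusted p 0.120 and 0.146), and St3gal1, a sialyltransferase that caps mucin-type sugars, by -1.10 ± 0.14 and -1.13 ± 0.14 (adjusted p 0.121 and 0.149). Parietal and chief cells express Xbp1 too, and their part in its difference was not tested.

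Of 15 epithelial transcription factors, 0 had an adjusted p under 0.05, and 2 were higher and 0 lower at an unadjusted p under 0.05 at 48 h and at 72 h, where 8.16% and 7.93% of all genes were higher and 11.6% and 10.0% lower. Klf5, a factor of dividing epithelium, had a log2 signal of 8.68 without toxin and 9.28 to 9.54 after toxin, with no overlap (0.72 ± 0.16 at both 48 h and 72 h, adjusted p 0.179 and 0.197 in limma). Klf4, a factor of differentiated surface cells, was at 8.83 on the control and 9.06 to 9.60 after toxin (adjusted p 0.454 and 0.354). Spdef, a factor of mucous cells, was at 6.77 on the control and 6.59 to 6.88 after toxin. Of 9 EGF receptor ligands and receptors, a pathway that drives pit cell growth when in excess, 0 were higher and 1 lower at an unadjusted p under 0.05 at either time, a share near that of all genes (11.6% and 10.0% lower), and 0 had an adjusted p under 0.05. Tgfa, a ligand that expands pit cells in mice, was at 6.81 on the control and 6.57 to 6.86 after toxin. Egf itself, named after its values were seen, was at 7.51 on the control and 4.30 to 4.70 after toxin (adjusted p 0.120 at 48 h and 0.146 at 72 h in limma). For the slope in limma, 3 of the 9 were higher and 0 lower at an unadjusted p under 0.05, where 4.22% of all genes were higher. These were Ereg, Hbegf and Btc, each lowest at 24 h, with adjusted p from 0.440 to 0.498. Also named after their values were seen, Egfr and Erbb3 were the 2 of 9 above the control on all 6 arrays (20.2% of all genes). The 1 gene below it on all 6 was Egf (22.6% of all genes). Erbb3 was above the control by 0.42 to 0.93.

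Markers of other cells moved between the same arrays, and their part in the value of Muc5ac was not tested. The median of 9 measured proliferation genes was above the control by log2 differences of 1.05 (24 h), 0.81 (36 h), 0.92 and 0.63 (48 h pair), and 0.52 and 0.29 (72 h pair). All 9 genes were above it on all 6 arrays, where 20.2% of all genes were. Parietal cell genes were lowest at 24 h, with 12 of 15 lower by 2-fold or more, where 1.67% of all genes were. Atp4b, the pump subunit, was at log2 values of 12.94 on the control, then 10.68 (24 h), 12.33 (36 h), 11.66 and 12.39 (48 h pair), and 12.65 and 12.92 (72 h pair). The median of 8 genes listed for mucous neck cells was 0.25 to 0.88 above the control, with 5 of 8 above it on all 6 arrays, against 20.2% of all genes. These 5 were Gkn3, Cd44, Wfdc2, Aqp5 and Cftr, and Tff2 was above the control on 5 of 6 arrays. A4gnt, the enzyme that caps the sugars of gland mucin, went the other way and was below the control on all 6 arrays, by log2 differences of -0.21 to -1.54, and Muc6 was below it on 3 of 6. The median of 6 chief cell genes differed from the control by -0.64 to -0.99. Squamous forestomach genes had a median log2 signal of 5.11 without toxin, 5.19 (24 h), 5.23 (36 h), 3.88 and 5.39 (48 h pair), and 5.64 and 4.12 (72 h pair). Of 11 goblet and intestinal genes, 8 were above the control on all 6 arrays, against 20.2% of all genes. The median log2 difference of the 11 was 0.26 (24 h), 0.83 (36 h), 0.55 and 0.52 (48 h pair), and 0.69 and 0.78 (72 h pair). Clca1, secreted by goblet cells, was 2.32 above the control at 24 h and 3.29 to 3.94 above it later. Zg16, another goblet cell product, was 0.26 above the control at 24 h and 0.87 to 4.93 above it later. Of the antral pair, Gast was above the control on all 6 arrays, and the median of Gast and Pdx1 was -0.09 from it at 24 h and 0.42 to 1.35 above it later.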

How the data were processed

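Biotin-labelled cDNA from corpus RNA (Affymetrix WT Plus reagents, per the labels' protocols) was hybridised to 7 arrays. The authors deposited log2 signal for 41345 probe sets; the submitters' processing notes name Partek and RMA, with no version. Values were analysed as deposited (array medians 4.56 to 4.71). Arrays have no read depth, and their number limits the precision. Probe sets were named by the platform's annotation: 23521 had 1 gene, 1814 several and 16010 none. Of several probe sets for 1 gene, that of highest mean signal was kept (22180 genes, of which 1082 had several). Names matched RefSeq GRCm38.p6 by Entrez identifier for 23328 probe sets.

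limma 3.58.1 in R 4.3.3 was fitted to all genes with a mean per group (2 residual and 1.15 prior degrees of freedom, both residual ones from the 48 h and 72 h pairs, whose spread the lone control is assumed to share) and with a slope over the 6 toxin arrays (4 and 1.83). P-values are two-sided and Benjamini-Hochberg adjusted over 22180 genes, with 0.05 as the threshold. At 24 h and 36 h differences of 2-fold were counted without a test. The steps were tested on simulated data. Alternatives changed the scaling, the probe set rule, the filter, the prior, the arrays in the fit and the replicate block.

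The 4 genes and all lists were chosen with earlier results of these data known. Named are the 4 genes, their families, up to 4 genes of each other list in its order, and the 3 nearest genes of each member, leaving out predicted genes; others are marked as named after their values were seen. RefSeq promoter windows were found for Gkn1, Gkn2 and Gkn3. The replicate numbers of 48 h and 72 h were not taken to pair the arrays: the within-pair differences correlated at -0.13 across genes.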

Additional observations from a re-analysis of the deposited data

How the results depend on the processing

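No adjusted p of Muc5ac, Tff1, Gkn1 or Gkn2 fell under 0.05 in limma under any alternative tried. Muc5ac kept its direction in all of them: its log2 difference ran from 0.36 to 0.56 at 48 h, from 0.30 to 0.40 at 72 h and from -0.22 to -0.06 for 72 h against 48 h, and its slope from -0.15 to -0.05. After a further quantile normalisation its 24 h difference was 0.59; subtracting array medians gave 0.39 at 24 h and 0.48 at 36 h. The other 3 genes lie so close to the control that small shifts turn their sign. Subtracting medians shifts whole arrays, by up to 0.14 against the control; the cause of the turns under the other alternatives was not tested. With quantile normalisation again, Tff1 at 48 h was 0.0335, Gkn1 at 48 h 0.0083, Tff1 for 72 h against 48 h -0.0032, the slope of Gkn2 0.0080 and Gkn2 at 36 h 0.0291. With array medians subtracted, Gkn2 at 48 h was -0.0600, Tff1 at 72 h -0.0446 and Gkn1 for 72 h against 48 h 0.0369; the slopes of Tff1, Gkn1 and Gkn2 were 0.0159, 0.0038 and 0.0166. In that setting Tff1, Gkn1 and Gkn2 were at -0.0700, -0.1042 and -0.0181 at 24 h and at -0.0578, -0.0974 and -0.0088 at 36 h. Leaving out 1 array at a time gave, at 48 h, -0.0713 to 0.0299 for Tff1 and -0.0473 to 0.0156 for Gkn1. For 72 h against 48 h it gave -0.0225 to 0.0787 for Tff1, -0.0727 to 0.0122 for Gkn1 and -0.0009 to 0.0068 for Gkn2. The slopes then ran from -0.0085 to 0.0045 for Tff1, from -0.0344 to 0.0081 for Gkn1 and from -0.0109 to 0.0021 for Gkn2.

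Genes called over the table went from 0 to 7 at 48 h and 5 at 72 h with quantile normalisation again, and to 167 and 30 with array medians subtracted; none of these was a member. At an unadjusted p under 0.05, 1569 genes differed between 72 h and 48 h, with 1041 to 3253 over the alternatives, and 1929 had a slope, with 1240 to 2206. Counting 1.5-fold gave 873 higher and 1207 lower genes at 24 h and 886 and 1218 at 36 h. With the replicate block the difference of Muc5ac between 72 h and 48 h was -0.13 (adjusted p 0.820), and no call of a member changed; with crossed numbers, added after seeing the data, 0 genes were called. These probe sets lie near the top of the signal range, and whether that limits the increase they could show was not tested.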
